A study of Mus musculus with 6 samples.

Results

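Erythroid cells entered the droplets of the mouse small intestinal mucosa as a small class that the globin messages set apart. A barcode, the tag of 1 droplet, was taken as erythroid when it held at least 500 UMIs (unique molecular identifiers, 1 per captured RNA molecule) and at least 20% of them came from Hbb-bs, Hbb-bt, Hba-a1 and Hba-a2, the adult beta and alpha chain genes. This rule found 1343 of 60706 barcodes, or 2.21%. Their summed globin level was therefore chosen and is given below as a description only.

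Single-cell RNA-seq libraries were prepared from 3 control littermates and 3 IE-HuR-/- mice, all on the C57BL/6 background and 6 to 8 wk old. The controls carried HuR fl/fl without Cre and are labelled wild-type, whereas the IE-HuR-/- mice carried HuR fl/fl with villin-Cre, a Cre driven by a promoter of the intestinal epithelium, which removes the RNA-binding protein HuR (gene Elavl1) from epithelial cells. The labels give normal feeding, whereas the study's methods state that food was withheld before experiments. The suspension was made with EDTA and a trypsin-like enzyme and was checked by flow cytometry for epithelial purity, but it was not sorted, and no step that removes red cells is described. Total depth ranged from 59518012 UMIs in IE-HuR-/- replicate 1 to 91818560 UMIs in control replicate 2. Each library is labelled as a separate replicate, but the labels do not name the animal, so p-values measure the spread between these libraries.

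Red cells form in the bone marrow from nucleated precursors that fill with hemoglobin, expel the nucleus and leave for the blood as reticulocytes, which still hold RNA. The reticulocyte then removes its mitochondria and ribosomes by autophagy and the ubiquitin pathway and becomes an erythrocyte. Hemoglobin carries oxygen as a tetramer of alpha and beta chains around heme, whose synthesis starts with the erythroid enzyme ALAS2 and ends with ferrochelatase. The mucosa of the small intestine is not known as a site of red cell formation in the adult mouse, and its villi are dense with capillaries.

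The alpha pair lies on chromosome 11, with Hba-a1 at chr11:32283511-32284465 and Hba-a2 at chr11:32296489-32297298, both on the plus strand. The beta pair lies on the minus strand of chromosome 7, with Hbb-bs at chr7:103826534-103828096 and Hbb-bt at chr7:103812524-103813996 (GRCm38, GENCODE annotation). Because the proportions of these 4 messages are reported below, the only coding bases that separate the members of each pair are shown, in GENCODE transcripts, with the differing base in capitals and positions counted from 1 at the A of the start codon.
Hba-a1, coding bases 367 to 395: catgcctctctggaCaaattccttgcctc
Hba-a2, coding bases 367 to 395: catgcctctctggaTaaattccttgcctc
Hbb-bs, coding bases 403 to 431: gtggctggagtggcCgctgccctggctca
Hbb-bt, coding bases 403 to 431: gtggctggagtggcTgctgccctggctca
The difference is C381T among 429 coding bases in the alpha pair and C417T among 444 in the beta pair. The 35 leader bases before the start codon that the annotation gives Hba-a2 are identical in Hba-a1, whereas 9 of the 53 compared bases differ between Hbb-bs and Hbb-bt. How counting assigned molecules between members of a pair is therefore uncertain, and more so for the alpha pair.

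The 4 genes were read together, so the 100 bases before each annotated start are also given, 5′ to 3′ on the gene's strand (RefSeq, GRCm38.p6). The RefSeq starts lie inside the GENCODE gene spans given above, and the windows of Hba-a1 and Hbb-bs fall wholly within those spans. Capitals mark CACCC, a box bound by Krüppel-like factors, CCAAT and TATAA, searched on both strands, and no match overlaps another.
Hbb-bs, chr7:103827929-103828028: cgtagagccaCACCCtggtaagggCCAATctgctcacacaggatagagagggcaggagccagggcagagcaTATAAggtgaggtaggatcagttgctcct
Hbb-bt, chr7:103813924-103814023: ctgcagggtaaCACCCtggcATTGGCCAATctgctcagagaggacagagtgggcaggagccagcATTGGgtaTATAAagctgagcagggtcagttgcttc
Hba-a1, chr11:32283572-32283671: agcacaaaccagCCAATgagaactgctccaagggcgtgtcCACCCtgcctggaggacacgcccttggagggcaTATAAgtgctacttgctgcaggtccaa
Hba-a2, chr11:32296392-32296491: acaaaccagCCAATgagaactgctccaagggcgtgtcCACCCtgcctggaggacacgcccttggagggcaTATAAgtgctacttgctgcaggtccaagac
All 4 windows held the 3 motifs, which occur in 27.4% (CACCC), 18.8% (CCAAT) and 10.2% (TATAA) of 32418 promoter windows of that length. GATAA, a form of the letters bound by GATA factors, was in none of the 4 and in 8.57% of all windows. Other forms were not searched. The alpha windows shared a run of 97 bases and the beta windows at most 14. These matches are a description of the letters.

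The members held 6009348 UMIs, of which 4573875 were globin. The median member held 3938 UMIs, of which 878 lay outside the 4 genes, and its median globin share was 76.3%. Globin share spread from the threshold up to 93.3%, and 558 members stood at 80% or more. The distribution had no gap at the threshold, as 69 barcodes lay between 15 and 20% and 49 between 20 and 25%. The lowest members had 20.1, 20.1 and 20.2% globin, and the highest barcodes left out had 19.9, 19.9 and 19.9%.

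**Figure D1:**
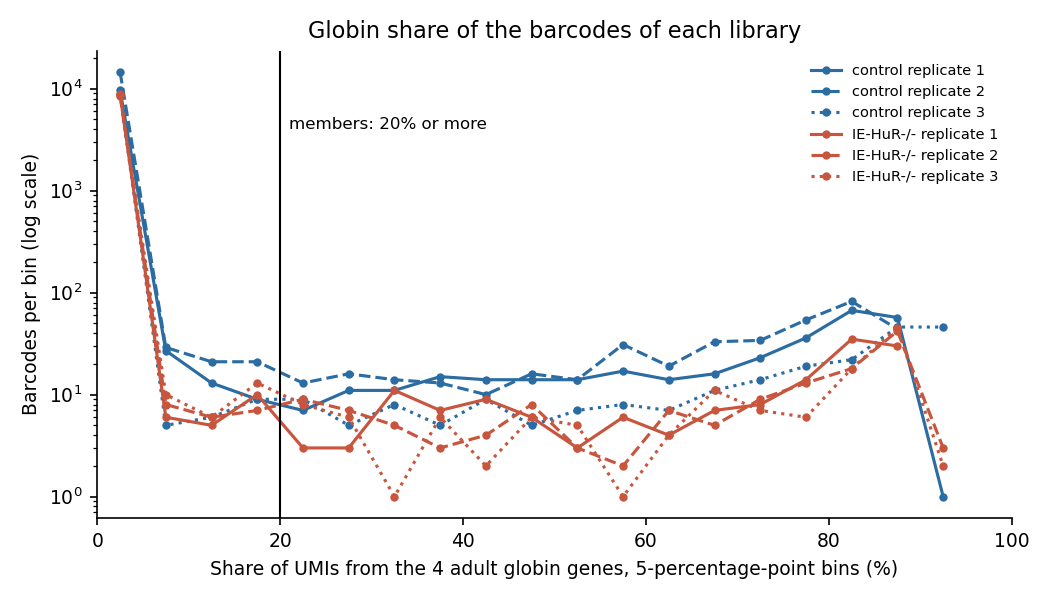
Number of barcodes (log scale) in bins of 5 percentage points of globin share, 1 line per library; bins with no barcode are not drawn. Most barcodes lie in the lowest bin, a low plateau crosses the 20% line, and each library has its highest counts above 20% at 80% globin or more.

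Some libraries and barcodes stood apart. Control replicate 3 held 46 barcodes at 90% globin or more, against 0 to 3 in each of the others. Of the members, 11 also carried at least 3 UMIs of the T cell receptor genes Cd3d, Cd3e and Cd3g, namely 1, 4 and 1 in the controls and 0, 3 and 2 in IE-HuR-/- replicates 1 to 3. No doublet caller was run, and the T cell, ribosomal protein and Malat1 shares and the counts of calls are given with and without these 11 mixed barcodes. The libraries shared 435 barcode sequences, 20 of which were a member in 1 library, and none was a member in both.

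Most globin transcripts lay in the members, which held between 95.9 and 98.4% of the globin UMIs of a library. In the other barcodes, globin made up 0.0333, 0.0615 and 0.0364% of UMIs in control replicates 1 to 3 and 0.0127, 0.0117 and 0.0195% in IE-HuR-/- replicates 1 to 3. These low levels did not overlap between the genotypes. Within a genotype, the order of the libraries by number of erythroid barcodes was not their order by globin outside them.

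Hbb-bs was the most abundant chain in each library, Hba-a1 and Hba-a2 followed close to each other, and Hbb-bt was the least abundant. Hbb-bs made up 50.6, 51.0 and 49.6% of the globin UMIs in the controls and 52.2, 51.5 and 51.7% in IE-HuR-/- mice. Hba-a1 ranged from 19.6 to 21.6% over the 6 libraries, Hba-a2 from 18.7 to 19.8% and Hbb-bt from 8.95 to 9.44%. Beta chain UMIs thus exceeded alpha chain UMIs by 1.41 to 1.60 times.

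Outside the 4 globins, Alas2, the first enzyme of heme synthesis in red cells, was the message that most set the members apart. Levels are given as CPM, UMI counts scaled to 1000000 UMIs outside the 4 globin genes. Alas2 stood at 4959, 4195 and 7518 CPM in control replicates 1 to 3 and at 6199, 5780 and 6595 CPM in IE-HuR-/- replicates 1 to 3. In all other barcodes together it was at 0.615 CPM. At least 1 Alas2 UMI was present in 79.2% of the members, at a median of 878 UMIs outside globin, against 0.196% of barcodes carrying Cd3 RNA, at a median of 4836 UMIs. The 279 members with no Alas2 UMI were spread over the 6 libraries, with 25 to 78 in each.

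The label of erythroid cells thus held for Alas2, the marker that the rule did not use. Because the rule selected on globin, the folds of single genes over all other barcodes are a description with no test. Only 5 measures outside the rule genes were tested, against barcodes with Cd3 RNA. Of 1796 genes at or above 50 CPM in the members, by UMIs pooled over the libraries as in each count against 50 CPM that follows, 44 (2.45%) were at least 4-fold above all other barcodes, with 20 CPM added to both sides. The median gene of the 1796 was at a log2 fold of -0.51. The CPM scale includes the RNA Gm42418, described below, at 419541 CPM in the members and 112202 CPM in all other barcodes. Its larger share lowers the CPM of every other gene more in the members. Levels set against other barcodes are all on this scale and were not recomputed without Gm42418.

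Genes of reticulocyte maturation held the most genes over 4-fold of the 6 erythroid lists. Of 16 listed genes, 12 reached 50 CPM and 9 were at least 4-fold above the other barcodes. Mkrn1, a ubiquitin ligase gene, stood at 2909, 2486 and 4079 CPM in the controls and at 3196, 3160 and 3500 CPM in IE-HuR-/- mice, against 201 CPM elsewhere. It averaged 3222 ± 540 CPM (SD, n = 6 libraries), and Bnip3l, whose product marks mitochondria for removal in reticulocytes, averaged 1639 ± 368 CPM. The ubiquitin-conjugating enzyme genes Ube2l6 and Ube2o averaged 1348 ± 350 and 393 ± 96.2 CPM, and Tent5c, which encodes a poly(A) polymerase, 1439 ± 434 CPM. The autophagy genes Gabarapl2 and Map1lc3b averaged 1158 ± 182 and 701 ± 161 CPM. Trim58, another ubiquitin ligase gene of red cell maturation, had 1 UMI in all members.

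Heme synthesis was represented at its ends and not in the middle. Fech, which encodes ferrochelatase, stood at 639, 567 and 844 CPM in the controls and at 939, 823 and 983 CPM in IE-HuR-/- mice. Slc25a37, the mitochondrial iron importer mitoferrin, stood at 766, 516 and 936 CPM in the controls and at 1155, 1009 and 1251 CPM in IE-HuR-/- mice. These were the only genes of 12 besides Alas2 at or above 50 CPM. The enzymes of the intermediate steps, Alad, Uros, Urod, Cpox and Ppox, averaged between 2.59 and 18.5 CPM, and at these levels they rested on 4 to 28 UMIs.

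Of 11 listed red cell enzyme genes 10 reached 50 CPM, led by Bpgm, the source of 2,3-bisphosphoglycerate, which lowers the oxygen affinity of hemoglobin. Bpgm stood at 3505, 3071 and 5244 CPM in the controls and at 4173, 4107 and 4686 CPM in IE-HuR-/- mice. Gpx1, which removes peroxides, averaged 1506 ± 496 CPM, and Blvrb, a biliverdin reductase gene, 202 ± 81.3 CPM. Car2, a carbonic anhydrase gene, averaged 390 ± 195 CPM but stood at 381 CPM in Cd3 barcodes. Pklr, the liver and red cell pyruvate kinase gene, was lower in the members than in all other barcodes in each library, at a mean over libraries of 48.8 ± 23.9 CPM and 57.1 CPM pooled.

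Transcripts of the red cell membrane were sparse apart from Epb41, the skeleton protein 4.1R, at 1388 ± 390 CPM. Slc4a1 (the anion exchanger band 3) averaged 119 ± 36.2 CPM, with a UMI in 7.37% of the members, and was below 1 CPM in all other barcodes. Sptb, Ank1 and Epb42 were below 11 CPM, and Ermap had no UMI.

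Messages of nucleated precursors were low. None of the 11 listed transcription factor and precursor receptor genes reached 50 CPM, and 4 had no UMI. Lmo2, a partner of the erythroid GATA complex, was the most abundant, at 31.9 ± 11.5 CPM against 1.64 CPM in the other barcodes, higher in 6 of 6 libraries. Hemgn, which encodes hemogen, had 14 UMIs and Zfpm1, the GATA cofactor FOG1, 37, the latter below the other barcodes in 5 of 6 libraries. Gata1, Tal1, Gfi1b and Epor had no UMI in 1435473 UMIs outside globin, which allows up to 2.09 CPM each by counting error alone, and Klf1 had 1 UMI. Tfrc, the transferrin receptor of precursors, rested on 19 UMIs, at 14.4, 16.2 and 25.4 CPM in the controls and 0, 0 and 8.12 CPM in IE-HuR-/- mice, against 8.52 CPM in the other barcodes. Of the 8 cell cycle genes none reached 50 CPM, and the most abundant was Hmgb2. Outside that list, Ube2c, a ubiquitin-conjugating enzyme of mitosis, averaged 177 ± 42.6 CPM against 5.43 CPM elsewhere, and Nusap1, a spindle protein gene, 139 ± 42.2 against 3.23 CPM. Both are among the 44 genes at least 4-fold higher and are named here after their values were seen. The embryonic globins Hba-x, Hbb-bh1, Hbb-bh2 and Hbb-y had no UMI, whereas Hbq1a, a theta globin gene, averaged 103 ± 41.3 CPM. Markers of neutrophils, platelets, endothelium and fibroblasts had 1, 9, 6 and 9 UMIs over whole lists, and S100a8, Pf4, Cdh5 and Col1a1 were at 0.

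**Figure D2:**
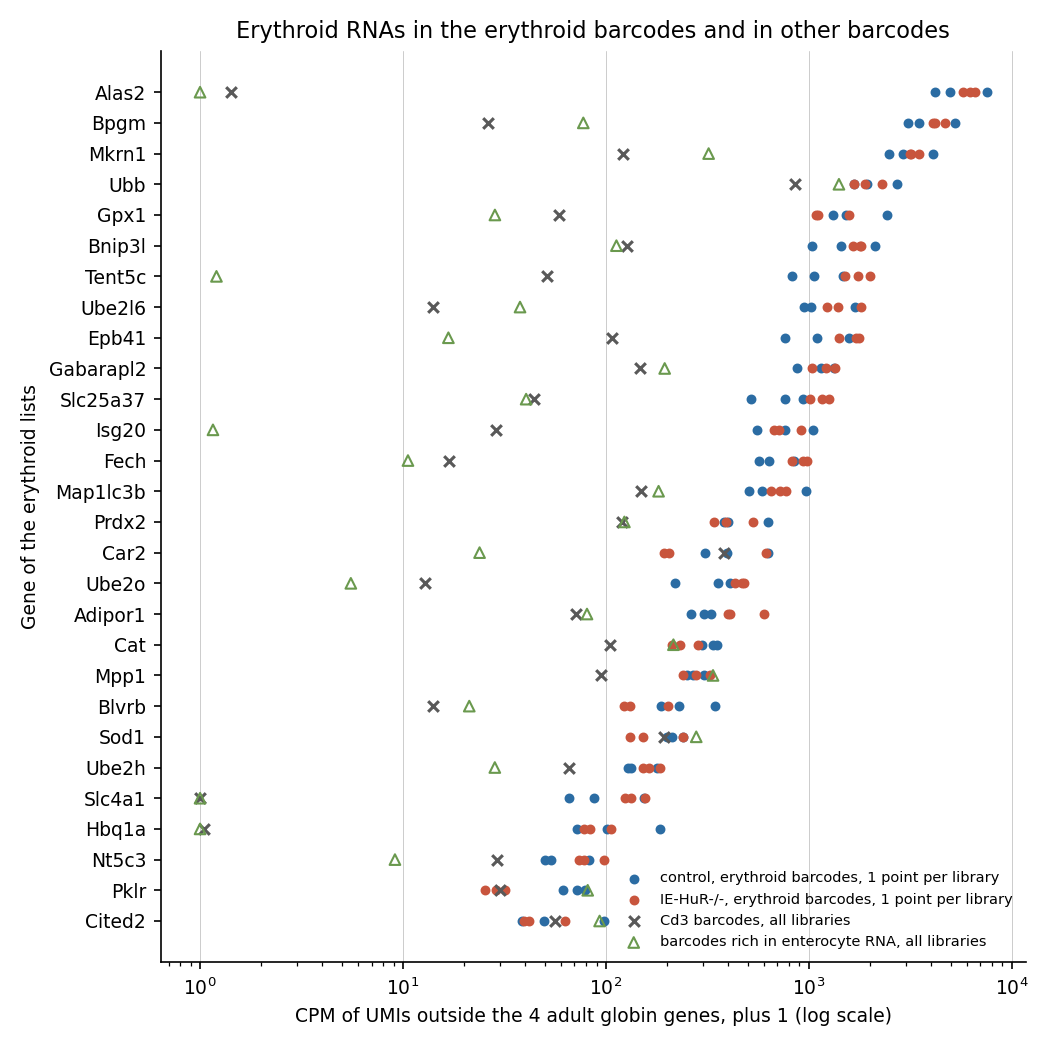
CPM plus 1 (log scale) of 28 of the 30 genes of the erythroid lists at or above 50 CPM in the members. Filled points are the 6 libraries, crosses the Cd3 barcodes and triangles the barcodes rich in enterocyte RNA. Alas2, Slc4a1 and Hbq1a sit near the left edge outside the members, whereas Mpp1, Sod1, Cat and Cited2 do not separate.

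The most abundant RNA outside globin was Gm42418, annotated as a lincRNA at chr17:39846958-39848788 (GRCm38, plus strand) and known to overlap a ribosomal RNA repeat. It took 45.2, 39.4 and 44.3% of these UMIs in the controls and 40.2, 40.5 and 43.0% in IE-HuR-/- mice. In all other barcodes pooled it stood at 112202 CPM. Mitochondrially encoded mt-Co3, mt-Atp6, mt-Co1, mt-Co2 and mt-Cytb, the nuclear RNA Malat1, the enterocyte genes Fabp2 and Apoa1, and Alas2 completed the 10 most abundant.

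Enterocyte RNA was present in each erythroid barcode. All 34 genes of the enterocyte list reached 50 CPM, and all 1343 members held at least 1 UMI of the list. The list took 4.49, 4.95 and 4.30% of UMIs outside globin in the controls and 5.20, 3.88 and 4.31% in IE-HuR-/- mice. Its most abundant gene was Fabp2, which encodes a fatty acid-binding protein. In absolute terms a member held a median of 38 enterocyte UMIs, against 3364 in the 388 barcodes that devote at least 20% of their UMIs to the list.

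Cd3 barcodes offered a comparison class that, like red cells, should not make enterocyte RNA. They were 6643 barcodes with at least 3 UMIs of Cd3d, Cd3e and Cd3g and under 1% globin. Within a library, the median number of enterocyte UMIs per erythroid barcode followed that of Cd3 barcodes: 40, 53 and 29 against 45, 57 and 32 in the controls, and 29, 34 and 36 against 35, 37 and 40 in IE-HuR-/- mice. Erythroid barcodes held on average 4.17 ± 1.17 fewer (SD of the differences, n = 6), lower in 6 of 6 libraries (two-sided exact sign-flip permutation test, p = 0.03125, the smallest 6 pairs allow, adjusted p = 0.0521 over 5 measures). The library with most in one class, control replicate 2, also had most in the other.

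Within the enterocyte list, the mean proportions of 30 of 34 genes lay nearer those of Cd3 barcodes than those of enterocyte-rich barcodes, and those of Rbp2, Apoa1, Epcam and Krt8 nearer the latter. Fabp2 made up 14.8 ± 2.99% of the list in erythroid, 14.9 ± 3.32% in Cd3 and 16.5 ± 4.67% in enterocyte-rich barcodes. Apob, the structural protein of chylomicrons, made up 8.15 ± 0.843, 5.98 ± 1.01 and 2.56 ± 1.15% in that order. Slc5a1, the sodium-glucose cotransporter, made up 2.58 ± 0.614, 2.17 ± 0.507 and 0.475 ± 0.161%. Sis, sucrase-isomaltase, made up 2.33 ± 0.419, 1.91 ± 0.371 and 0.495 ± 0.289%. In all barcodes outside the members, Fabp2, Apob, Slc5a1 and Sis made up 14.3 ± 2.14, 5.24 ± 0.549, 1.86 ± 0.410 and 1.56 ± 0.233% of the list. Enterocyte-rich barcodes were chosen by the sum of this same list, so the count of 30 is a description only. No test was run on these proportions.

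Malat1 and ribosomal protein messages took a smaller share in erythroid than in Cd3 barcodes of each library. Malat1, which stays in the nucleus, took 0.691, 1.06 and 0.593% of UMIs outside globin in the controls and 0.717, 1.22 and 1.24% in IE-HuR-/- mice, whereas Cd3 barcodes of the same libraries ranged from 3.08 to 3.56%. Enterocyte-rich barcodes stood at a mean of 10343 CPM against 9222 CPM in the members. That scale includes Gm42418, at 46082 CPM in enterocyte-rich barcodes and 420913 CPM in the members, so the 2 values are not directly comparable. The mean Malat1 difference from Cd3 barcodes, -2.33 ± 0.366 percentage points, had the same direction in 6 of 6 libraries (exact sign-flip permutation test, p = 0.03125, adjusted p = 0.0521). Ribosomal protein genes took 2.37 ± 1.03% in erythroid and 12.9 ± 0.688% in Cd3 barcodes, again lower in 6 of 6 libraries with the same p and adjusted p. Mitochondrially encoded genes took 7.14 ± 1.79 and 5.58 ± 0.586%, higher in 5 of 6 libraries (exact permutation p = 0.0938, adjusted p = 0.0938). Against all other barcodes the direction was the opposite for mt-Co3, mt-Atp6, mt-Co1, mt-Co2 and mt-Cytb, each lower in the members of each library. Pooled, mt-Co3 stood at 15011 CPM in the members and at 27529 CPM in all other barcodes. The scale of these CPM includes Gm42418, at 419541 CPM in the members and 112202 CPM in all other barcodes. The directions were not recomputed without it. Without the mixed barcodes the Malat1 difference was -2.51 ± 0.323 and the ribosomal protein difference -11.3 ± 0.481 percentage points, with the same p and adjusted p. None of the 5 measures passed an adjusted threshold of 0.05 in either setting.

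Members with little and with much globin differed in what else they held, given as a description since globin share chose them. The 196 members at 20 to 40% globin held a median of 3 UMIs of the erythroid lists, the 214 at 40 to 60% held 5.5, the 375 at 60 to 80% held 14 and the 558 at 80% or more held 47. Enterocyte UMIs stayed at medians of 39, 39, 40 and 36 in the same order. Median UMIs outside globin were 808, 855, 884 and 887. Mitochondrially encoded genes took 12.7% of UMIs outside globin in the lowest class and 4.58% in the highest, with a wide spread over libraries in the lowest, from 3.65% in IE-HuR-/- replicate 2 to 20.7% in IE-HuR-/- replicate 1.

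Globin proportions also differed between these classes. Hbb-bt made up 7.19, 10.2, 11.0 and 17.3% of beta chain UMIs from the lowest to the highest class, pooled over libraries. In the highest class the libraries lay close together, between 16.4 and 18.0%, and in the lowest they ran from 1.60 to 12.3%. Alpha genes made up 44.7, 42.6, 40.9 and 39.3% of globin UMIs over the same classes. A chain proportion averaged over members therefore depends on the mixture of classes.

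**Figure D3:**
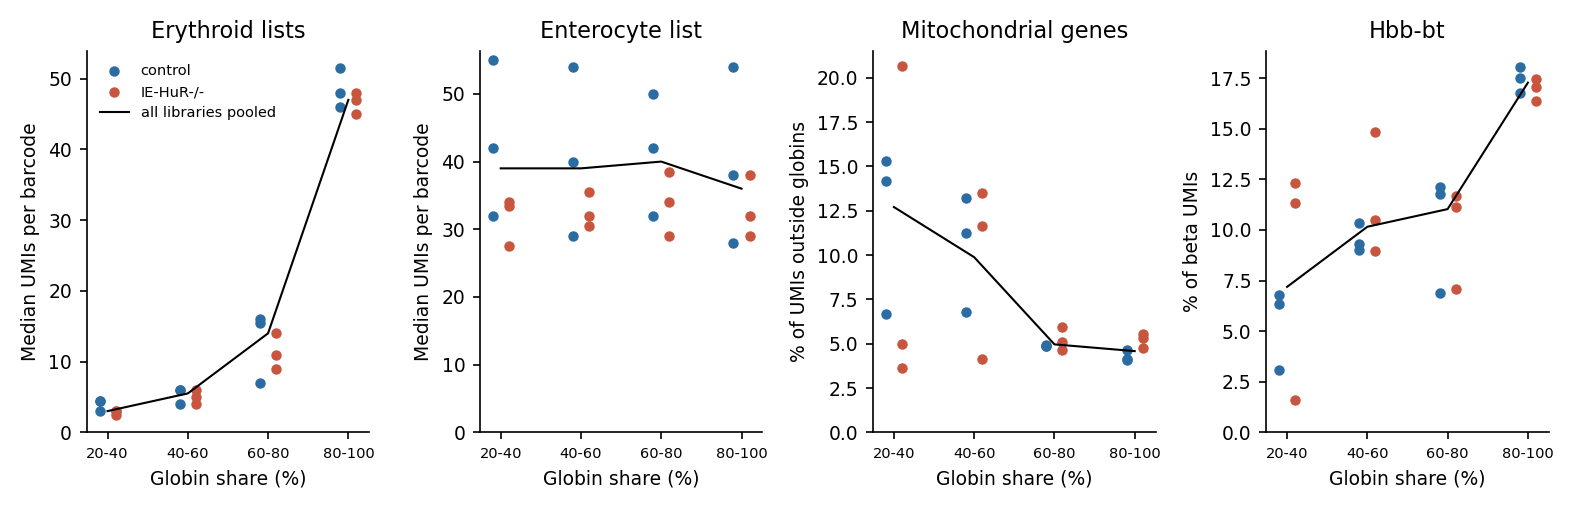
Median UMIs of the erythroid lists and of the enterocyte list per barcode, mitochondrially encoded share of UMIs outside globin, and Hbb-bt share of beta chain UMIs, by class of globin share. Points are libraries and the line pools them. Erythroid UMIs and Hbb-bt share are highest in the highest class, whereas enterocyte UMIs are near 40 in each.

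Erythroid barcodes made up a smaller share in each IE-HuR-/- library than in any control. They numbered 317, 393 and 221 in control replicates 1 to 3, or 3.17, 2.61 and 2.41% of barcodes, with exact Clopper-Pearson 95% intervals of 2.83 to 3.53, 2.36 to 2.88 and 2.10 to 2.74%. In IE-HuR-/- replicates 1 to 3 they numbered 146, 138 and 128, or 1.62, 1.56 and 1.49%, with intervals of 1.37 to 1.90, 1.31 to 1.84 and 1.24 to 1.76%. The intervals cover counting error only.

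The groups did not overlap, at 2.73 ± 0.394% against 1.56 ± 0.0661% (SD, n = 3 each), a ratio of 0.57. A two-sided exact permutation test gave p = 0.1, the smallest that 3 against 3 libraries allow. Per 100 Cd3 barcodes there were 31.0, 30.7 and 30.9 erythroid barcodes in the controls and 12.7, 11.2 and 10.3 in IE-HuR-/- mice. Cd3 barcodes numbered 1023, 1281 and 715 of 10007, 15041 and 9185 barcodes in the controls. In IE-HuR-/- mice they numbered 1152, 1230 and 1242 of 9025, 8835 and 8613, a larger share. The genotypes therefore differ more per Cd3 barcode than by share of all barcodes. Barcodes rich in enterocyte RNA numbered 23, 24 and 32 in the controls and 90, 122 and 97 in IE-HuR-/- mice. The part of the other loaded cells in the difference of shares was not tested.

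Among the chain proportions, the alpha share and the Hba-a2 share did not overlap between genotypes. Alpha genes made up 40.2, 39.9 and 41.4% of globin UMIs in the controls and 38.4, 39.2 and 38.9% in IE-HuR-/- mice, which differed by more than the spread within either group (difference -1.68 percentage points, exact permutation p = 0.1, adjusted p = 0.15 over 3 proportions). In members at 80% globin or more they made up 39.3, 39.3 and 40.7% against 37.5, 38.6 and 38.1%. The genotypes overlapped in the other classes, at 41.1, 39.9 and 44.8% against 40.7, 39.6 and 41.4% from 60 to 80% globin, 43.2, 42.6 and 43.3% against 40.5, 43.0 and 41.1% from 40 to 60%, and 45.4, 42.3 and 58.0% against 43.1, 44.1 and 47.0% from 20 to 40%. The Hba-a2 share of alpha UMIs was 47.0, 47.0 and 47.9% in the controls and 48.6, 48.6 and 49.5% in IE-HuR-/- mice (difference 1.63 percentage points, exact permutation p = 0.1, adjusted p = 0.15). By class of globin share the genotypes did not overlap either. At 80% globin or more the Hba-a2 share was 47.1, 47.3 and 48.2% against 48.6, 48.9 and 49.7%. From 20 to 40% globin the groups nearly met, with control replicate 3 at 47.85% and IE-HuR-/- replicate 3 at 47.87%. How counting assigned the alpha pair is uncertain, as given above. The Hbb-bt share of beta UMIs was 15.3 ± 0.0542 against 15.3 ± 0.161%, and the groups overlapped (exact permutation p = 0.6, adjusted p = 0.6). The test could not reach 0.05 in this design.

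**Figure D4:**
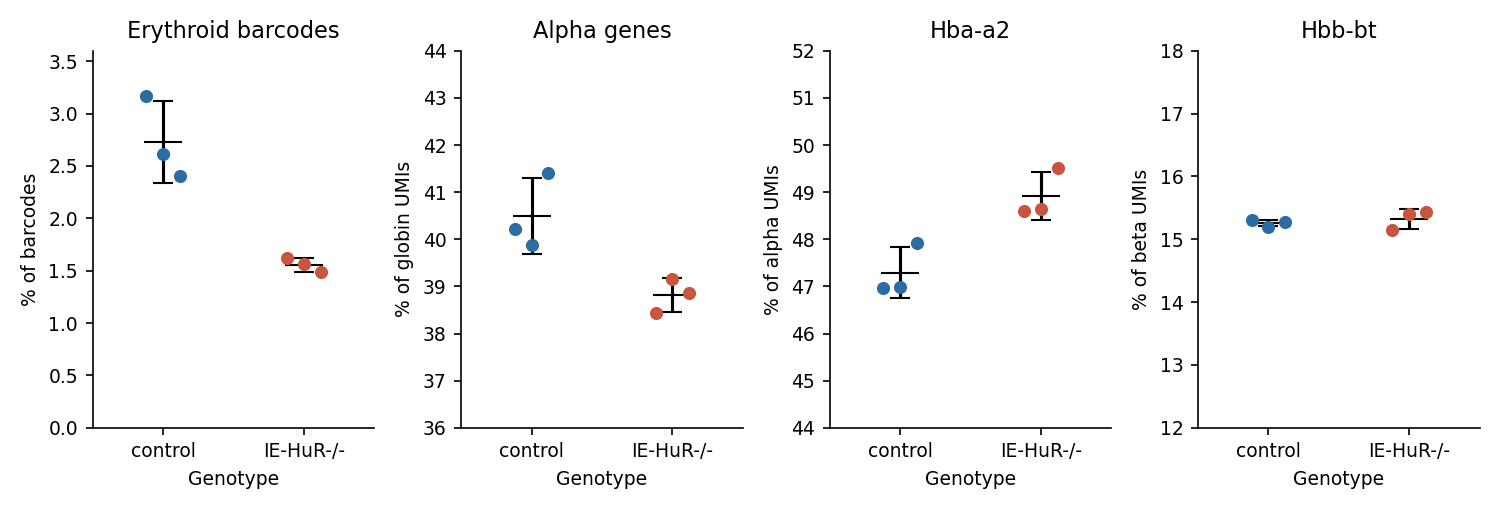
Share of barcodes that were erythroid, alpha gene share of globin UMIs, Hba-a2 share of alpha UMIs and Hbb-bt share of beta UMIs, 1 point per library, with mean and SD (n = 3 per genotype); only the first axis starts at 0. The genotypes separate in the first 3 panels and overlap in the last.

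The bulk composition of RNA outside globin overlapped between genotypes in each of the 6 measures tested. The erythroid lists together took 3.17 ± 0.906% in the controls and 3.46 ± 0.10% in IE-HuR-/- mice (exact permutation p = 0.7), and the enterocyte list 4.58 ± 0.338 against 4.46 ± 0.672% (p = 0.9, exact). Mitochondrially encoded genes took 7.16 ± 0.771 against 7.12 ± 2.73% (exact p = 1.0), Malat1 0.783 ± 0.249 against 1.06 ± 0.299% (exact p = 0.2, with a difference of 0.28 percentage points that was 0.12 without the mixed barcodes), and the median number of UMIs outside globin was 926 ± 136 against 772 ± 60.4 (exact p = 0.3). After adjustment the lowest p was 0.6. The median number of erythroid list UMIs per member, for which no test was run, was 17, 18 and 17 in the controls and 19, 19 and 22 in IE-HuR-/- mice, and did not overlap.

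Ribosomal protein genes took 1.55, 1.72 and 2.19% in the controls and 1.74, 4.28 and 2.73% in IE-HuR-/- mice (exact permutation p = 0.2). The high value of IE-HuR-/- replicate 2 went with T or NK cell RNA, which took 2.10% of its UMIs outside globin, against 0.0508 to 0.560% in the other libraries. Without the 11 mixed barcodes, T or NK cell RNA in that library was at 0.105% and ribosomal protein RNA at 1.97%. In the same setting the other libraries ranged from 1.35 to 1.80% for ribosomal protein RNA.

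Elavl1 itself was measured on few molecules. It had 18, 26 and 5 UMIs in the members of control replicates 1 to 3, or 51.8, 52.6 and 25.4 CPM, and 0, 11 and 3 UMIs in IE-HuR-/- replicates 1 to 3, or 0, 76.0 and 24.4 CPM. The count of 0 allows up to 23.1 CPM, and the genotypes overlapped. Cd3 barcodes of the same libraries held 64.6 to 79.9 CPM, above the erythroid value in 5 of 6 libraries (exact permutation p = 0.0625, adjusted p = 0.0781).

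Gene by gene, the RNAs that differed between genotypes in erythroid barcodes included antimicrobial lectins, MHC class II genes and cytochrome P450 genes. UMIs were summed per library over the members, the 4 globins were left out, and the quasi-likelihood test of edgeR called 50 of 1569 genes tested (3.19%) at a Benjamini-Hochberg adjusted p under 0.05. Of these, 19 (1.21%) were higher and 31 (1.98%) were lower in IE-HuR-/- mice. DESeq2 called 41, with 25 higher and 16 lower, and gave no adjusted p for 13 of the 50. Leaving out 1 library gave 25 calls at the fewest, when control replicate 1 was dropped, and 179 at the most, when IE-HuR-/- replicate 1 was dropped.

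None of the 29 tested genes of the 6 erythroid lists passed, against 3.19% of all genes tested, and 29 genes are too few to tell 0 calls from that share. Their median log2 fold change was 0.12 and that of all tested genes 0.03. A fold change above 0 was found for 18 of the 29 and for 828 of the 1569. Slc25a37, Tent5c, Adipor1 and Pklr were the 4 with an unadjusted p under 0.05. Alas2 differed by a log2 fold change of 0.18 ± 0.28 (SE, adjusted p = 0.842) and Bpgm by 0.16 ± 0.27 (adjusted p = 0.860). None of the 44 genes at least 4-fold above the other barcodes passed either.

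For some erythroid genes the call depended on which barcodes were summed. Slc25a37 differed by 0.65 ± 0.26 (edgeR adjusted p = 0.216), Tent5c by 0.68 ± 0.26 (adjusted p = 0.200) and Adipor1, which encodes an adiponectin receptor, by 0.69 ± 0.25 (adjusted p = 0.162). Pklr differed by -1.26 (adjusted p = 0.129). Adipor1 stood at 302, 261 and 331 CPM in the controls and at 400, 408 and 601 CPM in IE-HuR-/- mice. With the members limited to the 1044 at 50% globin or more, 5 of 28 erythroid list genes passed with edgeR, against 6.73% of all genes tested there, namely Adipor1, Tent5c, Epb41, Slc25a37 and Fech. Their log2 fold changes were then 0.87, 0.91, 0.74, 0.86 and 0.69. Without the mixed barcodes 2 of 29 passed, Adipor1 (0.81) and Slc25a37 (0.75), against 5.25% of all genes tested. With the rule lowered to 10% globin the same 5 passed of 31 tested, against 7.49%.

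The enterocyte list had 34 tested genes, of which 2 were higher and 3 lower with edgeR, against 1.21 and 1.98% of all genes tested, and its median log2 fold change was -0.03. Reg3b, an antimicrobial lectin of enterocytes, stood at 749, 747 and 666 CPM in the controls and at 4251, 2821 and 3476 CPM in IE-HuR-/- mice (log2 fold change 2.31 ± 0.25, edgeR adjusted p = 2.12e-05). Reg3g, its close relative, changed by 2.24 ± 0.25. Reg1, Lct, the gene of lactase, and Apoc3, an apolipoprotein gene, were lower, by -2.08 ± 0.36, -1.23 ± 0.27 and -0.90 ± 0.22. The genotypes did not overlap for these 5 genes, as for 18.9% of all genes tested.

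The 10 largest rises among called RNAs were led by Acta1, skeletal muscle alpha-actin, which stood at 8.64, 8.10 and 5.09 CPM in the controls and at 423, 525 and 447 CPM in IE-HuR-/- mice (log2 fold change 5.88 ± 0.35, edgeR adjusted p = 2.21e-08). The dual oxidase gene Duox2 rose by 3.14 ± 0.38 and its maturation factor Duoxa2 by 2.61 ± 0.27. The metallothionein gene Mt1 rose by 3.06 ± 0.30 and Gpx2, an epithelial glutathione peroxidase gene, by 2.18 ± 0.33. The MHC class II genes H2-Aa, H2-Eb1 and Cd74 (the invariant chain) rose by 2.67 ± 0.31, 2.18 ± 0.35 and 2.02 ± 0.28. Cd74 stood at 167, 156 and 76.3 CPM in the controls and at 616, 456 and 560 CPM in IE-HuR-/- mice.

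Cytochrome P450 genes, which oxidize drugs and lipids, made up 4 of the 10 largest falls. Of 13 tested, counted after their values were seen, 9 were called, all lower, against 1.98% of all genes tested. Several of these, such as Cyp2c29, had few UMIs in IE-HuR-/- mice and passed the low-count filter through the controls. This count is therefore a description only. Cyp3a11 stood at 1486, 1648 and 1241 CPM in the controls and at 146, 242 and 146 CPM in IE-HuR-/- mice (log2 fold change -2.98 ± 0.27, edgeR). Cyp2c29 changed by -5.74 ± 0.72, but rested on 0, 0 and 8.12 CPM in IE-HuR-/- mice. Cyp2b10 and Cyp2j6 changed by -2.17 ± 0.32 and -2.08 ± 0.32. S100g, the calcium-binding protein calbindin-D9k, changed by -4.99 ± 0.76 and rested on 0, 6.91 and 0 CPM in IE-HuR-/- mice. Bche (butyrylcholinesterase) changed by -3.09 ± 0.56, Cck (cholecystokinin) by -2.36 ± 0.49, the interferon-induced gene Ifit1 by -2.24 ± 0.41 and Pbld2 by -2.16 ± 0.50. Bche lost its call in 1 alternative setting, Cck in 3 and Pbld2 in 2. With 1 library left out Ifit1 reached -2.92 and Pbld2 -2.80, and Ifit1 reached -3.34 in another setting. The sizes of the lowest genes moved with 1 library, as Cyp2c29 was at -8.44 without IE-HuR-/- replicate 3, S100g at -7.68 without replicate 2 and Bche at -4.43 without replicate 1 of that genotype.

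The same contrast was fitted in all other barcodes of the same libraries, so the values are given side by side and are not independent. All 50 called RNAs had the same direction there and were also called there with edgeR. The share of all 1569 tested genes called there was not counted, so this count has no background beside it. Genes not called in the members were called there too, such as Mkrn1 and Fech (edgeR adjusted p = 2.7e-06 each). Acta1 differed there by 5.91, Duox2 by 2.63, Mt1 by 3.27 and Reg3b by 2.26, and Cyp3a11 by -2.28, Cyp2c29 by -4.37, S100g by -4.95 and Bche by -2.15. Pbld2 and Cck, at -2.16 and -2.36 in erythroid barcodes, differed there by -0.52 and -1.28, and the test of the difference described next gave adjusted p = 0.553 and 0.919 for them (edgeR). By the mean CPM over libraries, 49 of the 50 called RNAs stood lower in the erythroid barcodes than in the others, as did 1392 of the 1569 tested. Of the 50, 38 were lower in 6 of 6 libraries, against 65.5% of all genes tested. These counts are on the scale that includes Gm42418. The exception by that mean was E2f2, which was higher in 6 of 6. By pooled UMIs, 45 of the 50 were lower and 5 higher, against 1398 and 171 of the 1569 tested. Besides E2f2, the higher ones were Bche, Ifit1, Cyp2j6 and Cyp2c29, at log2 folds of 0.11, 0.06, 0.05 and 0.02. E2f2, a cell cycle transcription factor gene named here after its values were seen, averaged 33.7 CPM in the controls and 86.3 CPM in IE-HuR-/- mice (log2 fold change 1.38 ± 0.36, edgeR adjusted p = 0.0490), and lost its call in 12 of 16 alternative settings.

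**Figure D5:**
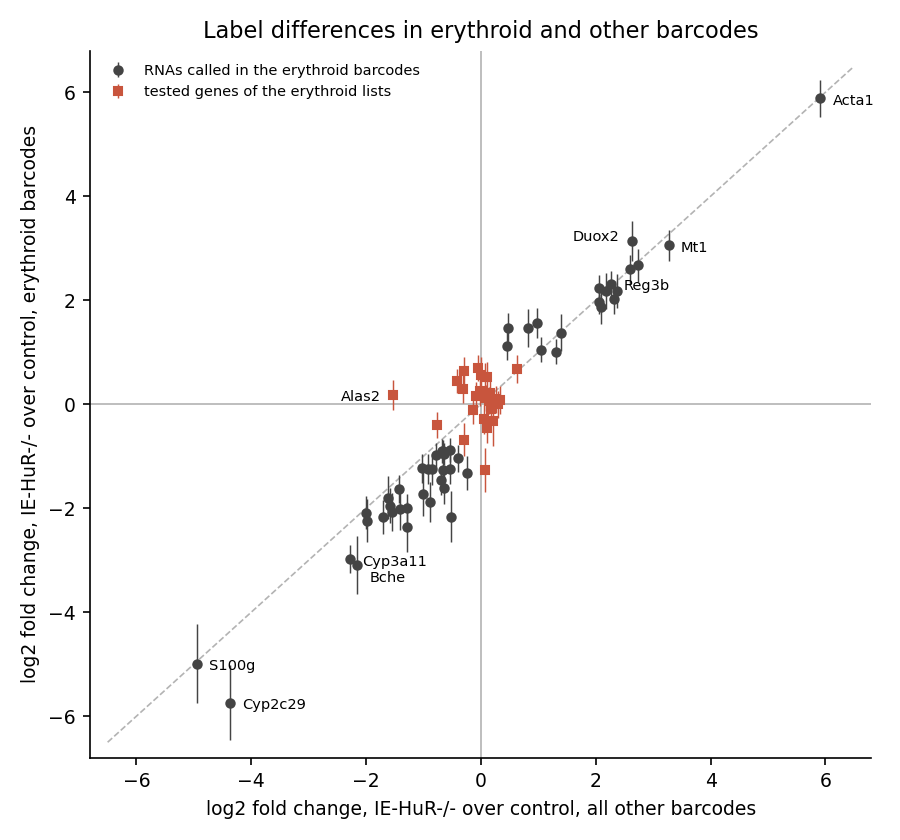
Log2 fold change of IE-HuR-/- over control in all other barcodes (x axis) and in erythroid barcodes (y axis, bars are SE) for the 50 RNAs called in erythroid barcodes (circles) and for 25 tested genes of the erythroid lists with a value in both (squares); the dashed line marks equal values. Acta1 lies at 5.88 and Cyp2c29 at -5.74 on the y axis, and the erythroid genes lie between -1.26 and 0.69.

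Whether the genotype difference was of another size in erythroid than in other barcodes was tested with edgeR in 1 model of 12 sums, with the library as a block. None of 1569 genes passed (0.0%), and 77 had an unadjusted p under 0.05. Without IE-HuR-/- replicate 1 the count was 27, and against enterocyte-rich barcodes alone it was 109. The smallest p belonged to Ncoa4, which encodes the receptor that delivers ferritin to autophagy (difference of log2 fold changes 1.27 ± 0.26, adjusted p = 0.210). Without the mixed barcodes 5 genes passed, all higher in erythroid barcodes, and Cdr2, Ncoa4, Slc25a37 and Fech were among them, named after their values were seen. In the other barcodes Alas2 differed by -1.52 ± 0.61 between genotypes and did not pass (edgeR adjusted p = 0.0867), and globin RNA there was lower in IE-HuR-/- mice, as given above. The part of that low erythroid signal in the differences was not tested.

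The 8 tested genes of the T or NK list had a median log2 fold change of 1.83 in the members, and none passed with edgeR. Gzma stood at 288, 1358 and 1394 CPM in the controls and at 216, 9389 and 2323 CPM in IE-HuR-/- mice, with IE-HuR-/- replicate 2 far above the others. Without the mixed barcodes it stood at 284, 285 and 262 CPM in the controls and at 216, 403 and 581 CPM in IE-HuR-/- mice. The mixed barcodes of that library held most of its T or NK RNA, as the shares above show. Goblet genes, of which 6 were tested, had a median of -0.41 and none passed.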

How the data were processed

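The authors prepared droplet libraries and deposited UMI counts per gene and barcode, mapped to mm10 per the labels, made with Cell Ranger (6.1.2 in the file headers) and analysed with Seurat. Labels give a 5′ kit and the features are mouse genes, but the study's methods state a 3′ kit, another Cell Ranger release and a human transcriptome. All 60706 deposited barcodes held at least 500 UMIs. Depth per library was 59518012 to 91818560 UMIs, and that of the erythroid sums outside globin 123133 to 493972, which limits genes under about 20 CPM.

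Members, lists and tests were chosen with earlier results of these data known. Counts were summed per library over members, and the 4 rule globins were left out. The genotypes were compared with edgeR 4.0.16 (TMM, filterByExpr with at least 10 counts, robust quasi-likelihood, Benjamini-Hochberg) in R 4.3.3, tested on simulated data, with DESeq2 1.42.0 as an alternative. Proportions were compared by exact permutation over libraries. The filter of the 12-sum model was set after seeing the data. Named genes were those of the lists, Elavl1, the 10 most abundant, the 10 of largest fold over other barcodes, and the 10 largest rises and falls among called RNAs with no overlap between genotypes and at least 50 CPM in 1 of them. Of 205 listed genes, 204 matched a symbol, and Ahsp did not. Some genes of the lists are not reported here.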

Additional observations from a re-analysis of the deposited data

How the results depend on the processing

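The lower share of erythroid barcodes (main difference -1.17 percentage points), the lower alpha share (-1.68) and the higher Hba-a2 share (1.63) kept their direction under all 11 alternatives run for each. The Hbb-bt difference (0.068 percentage points) turned to -0.064 without the mixed barcodes. Of the composition measures, the mitochondrially encoded difference (-0.041) turned to 0.055 at 50% globin, 0.12 without the mixed barcodes and 1.29 as a median over barcodes, and ranged from -1.44 to 1.28 with 1 library left out. The enterocyte difference (-0.12) turned to 0.17 without the mixed barcodes, was -0.72 at 10% globin and -0.50 at 50% globin, and ranged from -0.49 to 0.17 with 1 library left out, the ribosomal protein difference (1.10) ranged from 0.42 to 1.69 and was 0.077 as a median over barcodes and 1.78 without Gm42418, AY036118 and Lars2 (chosen after seeing the data), the erythroid list difference (0.30) ranged from -0.073 to 0.80, and the Malat1 difference (0.28) turned to -0.021 as a median over barcodes, all in percentage points. The causes were not tested. With 5 libraries the sign-flip test allows no p under 0.0625, so the Malat1 (-2.41 to -2.23), ribosomal protein (-10.8 to -10.4) and enterocyte UMI (-4.4 to -3.8) differences from Cd3 barcodes lost their raw p by construction. The 5 differences from Cd3 barcodes kept their direction without the mixed barcodes, an alternative added after seeing the data.

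The count of called genotype differences (50) was 92 with no filter on low counts, 160 at 10% globin, 79 at 50% globin and 75 without the mixed barcodes, and 25 to 179 with 1 library left out, with 179 without IE-HuR-/- replicate 1. With the replicate number as a block it was 111. The numbers are not known to pair the animals, since same-numbered libraries deviated together with correlations of 0.37, 0.075 and -0.042, so the block only shares a number. Without Gm42418, AY036118 and Lars2, an alternative chosen after seeing the data, it was 49. The count for the difference of genotype differences (0) was 109 against barcodes rich in enterocyte RNA, 1 with no filter on low counts, 1 with the filter over all 12 sums (chosen after seeing the data), 5 without the mixed barcodes, and 0 to 27 with 1 library left out, 27 without IE-HuR-/- replicate 1. Of the 20 largest rises and falls, 17 kept their call wherever an adjusted p was given, and none turned direction. Bche, Cck and Pbld2 lost it without 1 library or more. With 1 library left out Alas2 ranged from -0.046 to 0.47 and Bpgm from -0.051 to 0.43, each below 0 without control replicate 2, and Bpgm was at -0.0016 with no filter. Depth limits RNAs under about 20 CPM, and thinning the sums to the lowest total left 40 calls.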
